A study of Homo sapiens with 8 samples.

Results

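HERV-Fc is a small group of human endogenous retroviruses, and its RNA was followed here in THP-1 cells treated with decitabine (DAC). Its members were the rows of the deposited expression table that carry no Ensembl gene identifier and whose name begins with HERV-Fc, which gave 6 of the 1264 repeat families listed. They are 2 internal families, HERV-Fc1-int and HERV-Fc2-int, and 4 families of long terminal repeats (LTRs), HERV-Fc1_LTR1, HERV-Fc1_LTR2, HERV-Fc1_LTR3 and HERV-Fc2_LTR. The group was chosen for its strong rise with DAC in parental cells, so every value of that contrast is given as a description and without a test. Of the 6 families, 5 passed the filter on low values, and HERV-Fc1_LTR2 did not.

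An endogenous retrovirus is the remnant of an ancient germline infection. A complete copy, or provirus, has an internal region that once encoded the structural proteins, the enzymes and the envelope protein of the virus, and an identical LTR was placed at each end when it integrated. The LTR holds the promoter and the polyadenylation signal, and most copies in the human genome are solitary LTRs or are decayed. HERV-F belongs to the class I retroviruses, which resemble gammaretroviruses, and the letter F names the phenylalanine tRNA assigned as the primer of reverse transcription. In differentiated cells endogenous retroviruses are commonly silenced by DNA methylation, and DAC, a cytidine analogue built into DNA, traps DNA methyltransferases and lowers methylation as cells divide. RNA of such elements can pair into double-stranded RNA, which innate sensors recognise.

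RNA was sequenced from parental THP-1 cells, a human acute monocytic leukemia line, and from DAC-resistant THP-1 cells, all of genotype WT as labelled. Each line received DMSO, the solvent control, or 1 µM DAC for 6 days, with 2 libraries per group and 8 in all. The resistant line had been selected by repeated cycles of DAC and recovery, so both of its groups carry that earlier exposure, and it is a single selected line. The labels name the replicates as biological but do not describe separate cultures beyond that. The p-values therefore measure only the spread between these libraries.

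The table holds FPKM values multiplied by 1000, that is, reads scaled by the length of the family and by the library total, and FPKM is used below. Read counts could be recovered from the values, for families as the smallest whole numbers that fit. Reads on all repeat families came to between 3112608 and 3725841 per library, and the totals used to scale genes to between 27480502 and 31916835. Of 12 markers of monocytic leukemia, 9 were at or above 1 FPKM in every library, and their summed level was 416 to 434 FPKM in parental cells with DMSO, 514 to 526 FPKM with DAC and 317 to 334 FPKM in the resistant cells. Of 6 B and plasma cell markers, 5 were in the table and summed to 5.35 to 5.59 FPKM in parental cells with DMSO, 7.25 to 8.56 FPKM with DAC and 5.37 to 5.89 FPKM in the resistant cells. The 3 erythroid markers summed to at most 0.834 FPKM except in 1 resistant DMSO library, at 3.05 FPKM. The summed level of the 3 T cell markers was 0.479 to 0.727 FPKM in the parental cells with DAC and at most 0.0751 FPKM in all other libraries, and that of the 4 epithelial markers was 1.45 to 1.93 FPKM with DAC and at most 0.195 FPKM elsewhere. EPCAM and CDH1 were under 0.1 FPKM in every library. The 3 fibroblast markers summed to 0.644 to 0.693 FPKM in parental cells with DMSO, 5.05 to 5.59 FPKM with DAC and 4.72 to 6.33 FPKM in the resistant cells. The part of such shifts in the HERV-Fc values was not tested. In bulk RNA, more cells with a transcript and more of it per cell cannot be told apart.

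HERV-Fc2-int, the internal region of HERV-Fc2, was the family with the highest level in the parental cells given DAC, rank 1 of 1165 families, and was under 1 FPKM in every other library. Its level was 0.447 and 0.118 FPKM in parental cells with DMSO and 164 and 149 FPKM with DAC. In the resistant cells it was 0.307 and 0.214 FPKM with DMSO and 0.736 and 0.210 FPKM with DAC. Both parental DAC libraries lay far above all 6 others, and the other 6 lay among each other. The reads behind these values were 20 and 5, then 6194 and 5666, then 12 and 8, and then 29 and 8. The mean in parental cells with DAC, 156 ± 10.3 FPKM (SD, n = 2), was 554-fold the mean with DMSO, 0.282 ± 0.232 FPKM (SD, n = 2). It was 331-fold the mean of the resistant cells with DAC, 0.473 ± 0.371 FPKM (SD, n = 2). Both folds rest on few reads in the lower group. The first was 1325-fold without the first parental DMSO library and 350.2-fold without the second, and the other was 743-fold without the first resistant DAC library and 213-fold without the second. The family ranked 832 of 1165 in parental cells with DMSO, 818 in resistant cells with DMSO and 564 in resistant cells with DAC.

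HERV-Fc2_LTR, the LTR that flanks this internal region, was detected in only those same libraries. It was at 124 and 139 FPKM in the parental cells with DAC, from 379 and 426 reads, and at 0 reads in the other 6 libraries. It ranked 2 of 1165 in parental cells with DAC. With 3 reads per library taken as the floor that a count of 0 allows, its mean with DAC was at least 154-fold higher than with DMSO in parental cells and at least 137-fold higher than in resistant cells with DAC. The floor covers counting error only. The level of the LTR per kilobase was 0.759 and 0.933 of the level of the internal region in the 2 libraries. Of all families, HERV-Fc2_LTR alone had 0 reads in those 6 libraries and at least 10 in each parental DAC library. Only HERV-Fc2-int joined it with up to 30 reads allowed in each of the 6 and at least 100 asked of both DAC libraries. The largest count of HERV-Fc2-int among the 6 was 29 reads, just under that limit. These cuts use the rise that chose the members and reads not scaled by family length, so they only describe.

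HERV-Fc1-int, the internal region of HERV-Fc1, differed in that it was already present without drug. Parental cells had 5.13 and 4.87 FPKM with DMSO and 18.4 and 14.9 FPKM with DAC, from 488, 438, 1475 and 1204 reads. The DAC-resistant cells had 5.449 and 5.449 FPKM with DMSO and 4.03 and 4.199 FPKM with DAC, from 453, 433, 337 and 339 reads. The parental DAC libraries were again the highest, and the resistant DAC libraries were the lowest of all 8. In parental cells the mean rose from 5.00 ± 0.185 to 16.6 ± 2.43 FPKM (SD, n = 2 each), 3.33-fold, or 1.73 on the log2 scale with a standard error of 0.10. The family ranked 23 of 1165 in parental cells with DMSO, 5 with DAC, 32 in resistant cells with DMSO and 46 with DAC.

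The 3 LTR families of HERV-Fc1 did not share one pattern. HERV-Fc1_LTR1 was measured in every library, at 3.04 and 1.87 FPKM in parental cells with DMSO, 3.27 and 4.43 FPKM with DAC, 3.94 and 2.22 FPKM in resistant cells with DMSO and 1.91 and 2.99 FPKM with DAC. The parental DAC libraries lay above the parental DMSO libraries by means of 1.57-fold, but the lower of them was below the higher resistant DMSO library. HERV-Fc1_LTR3 had 4 and 1 reads in the parental DAC libraries and 0 in the other 6. HERV-Fc1_LTR2 had 1 read in all, in the second parental DAC library. For both families these are the smallest whole counts that fit the deposited values, and higher multiples would fit too. At these counts no fold is given for LTR2 and LTR3, since both groups were at or near the floor of 3 reads.

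**Figure D1:**
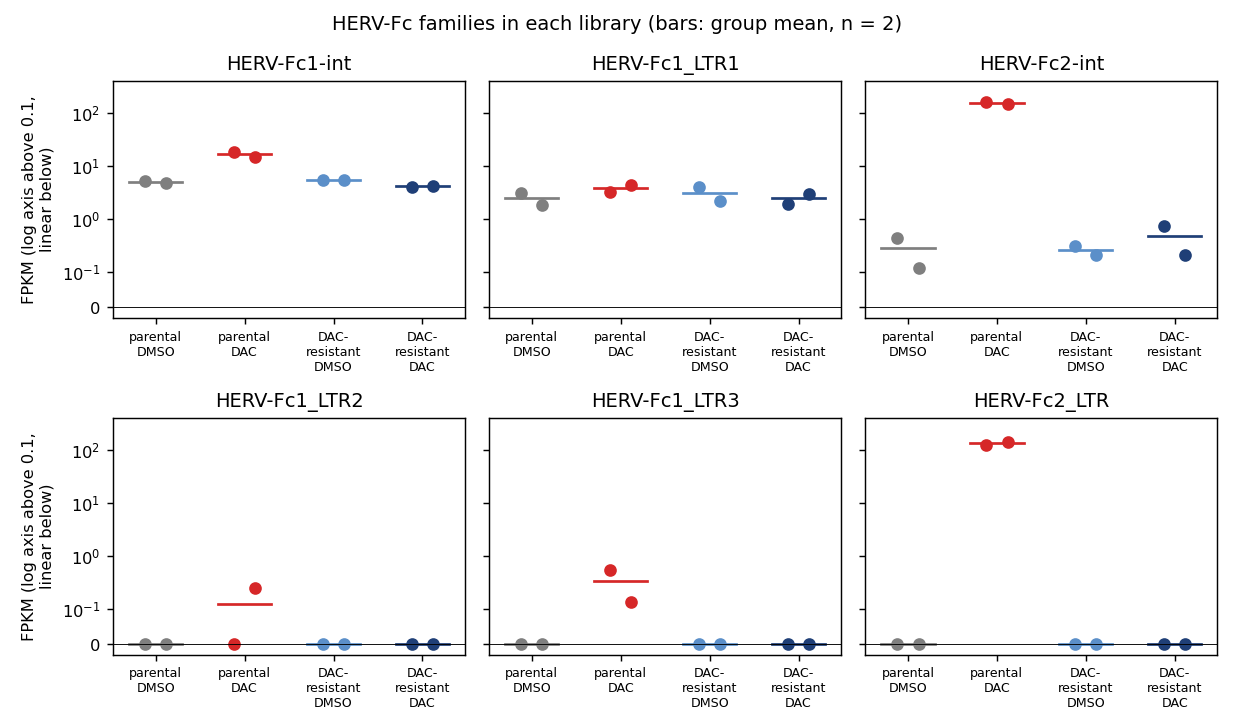
Level of each HERV-Fc family in FPKM in the 8 libraries, on an axis that is logarithmic above 0.1 and linear below. Points are libraries and short lines are group means (n = 2); HERV-Fc2-int and HERV-Fc2_LTR stand above 100 FPKM in both parental DAC libraries and below 1 FPKM in all others.

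Summed over the 6 families, HERV-Fc came to 154 and 137 reads per 1000000 repeat reads in parental cells with DMSO, and 2578 and 2335 with DAC. The 95% Wilson intervals of the latter were 2522 to 2634 and 2282 to 2388, and they cover counting error only. In the resistant cells the sum was 166 and 155 reads per 1000000 repeat reads with DMSO and 123 and 127 with DAC. The split between HERV-Fc1 and HERV-Fc2 follows the authors' repeat annotation and does not tell which provirus the reads came from. Where that annotation places the HERV-Fc1 provirus described below was not examined here. HERV-Fc2 gave 3.48% and 1.04% of HERV-Fc reads in parental cells with DMSO and 81.0% and 82.5% with DAC, while in the resistant cells it gave 2.22% and 1.66% with DMSO and 7.20% and 1.99% with DAC. The higher resistant value came from the first DAC library, with 29 reads of HERV-Fc2-int. Per kilobase, HERV-Fc2-int was 8.92 and 10.0 times the level of HERV-Fc1-int in the parental DAC libraries.

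**Figure D2:**
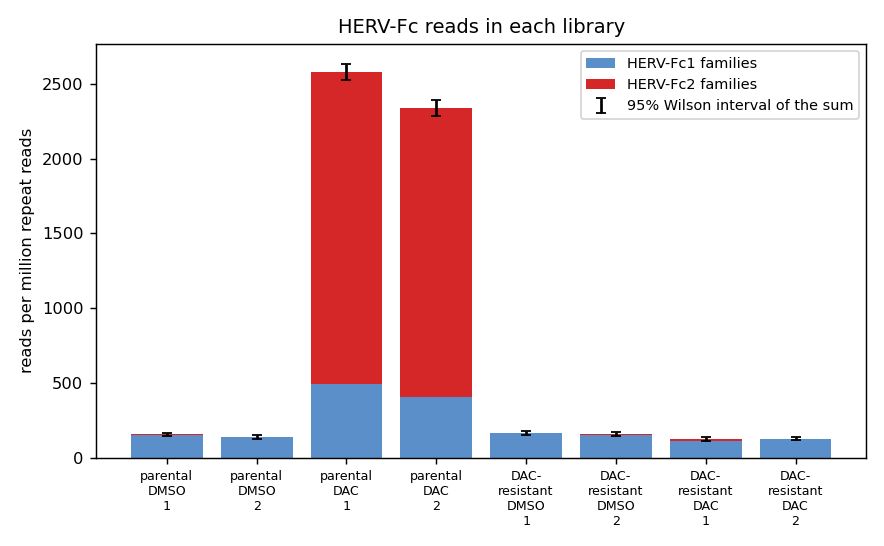
HERV-Fc reads per 1000000 repeat reads in each library, stacked as HERV-Fc1 families (blue) and HERV-Fc2 families (red), with the 95% Wilson interval of the sum. The 2 parental DAC libraries reach 2578 and 2335 and are mostly HERV-Fc2, and the other 6 lie between 123 and 166 and are mostly HERV-Fc1.

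The comparison of DAC with DMSO in the DAC-resistant cells asked whether these families responded to the drug in cells selected to survive it. The rise that the members were chosen for was not measured in these libraries, although earlier results of these data were known at the choice. By limma, where a call needs an unadjusted p no greater than 0.01 and a change of 1 or more in size on the log2 scale, 0 of the 3 families with reads in these libraries were called, beside 0.515% of all 1165 families tested. At an unadjusted p under 0.05 alone, 1 of the 3 passed, beside 117 of all 1165 families (10%), and 0 families of any kind passed at an adjusted p under 0.05. Limma's voom method on the recovered reads called 0 of the 3 and 2 of all families. HERV-Fc1-int was lower with DAC, by -0.41 on the log2 scale (standard error 0.10, limma adjusted p = 0.345 over all families). Its DAC and DMSO libraries did not overlap, as for 19.5% of all families in that direction, and the size of the change was below the threshold. HERV-Fc1_LTR1 differed by -0.31 (standard error 0.41, limma adjusted p = 0.802), with groups that overlapped. HERV-Fc2-int differed by 0.62 (standard error 0.82, limma adjusted p = 0.804), with groups that overlapped, and the difference was -0.28 without the first resistant DAC library. HERV-Fc2_LTR, HERV-Fc1_LTR2 and HERV-Fc1_LTR3 had 0 reads in all 4 resistant libraries. For HERV-Fc2_LTR the floor of 3 reads in the resistant DAC libraries equals 0.944 and 0.979 FPKM, so a level like that of the parental DAC libraries, 124 and 139 FPKM, would have been seen at this depth, and a level under the floor would not. The other 2 families had smallest fitting counts of at most 5 reads over both parental DAC libraries. A response of that size was not detectable. The smallest two-sided p that an exact permutation of 2 against 2 libraries allows is 0.333, so no such test is given.

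**Figure D3:**
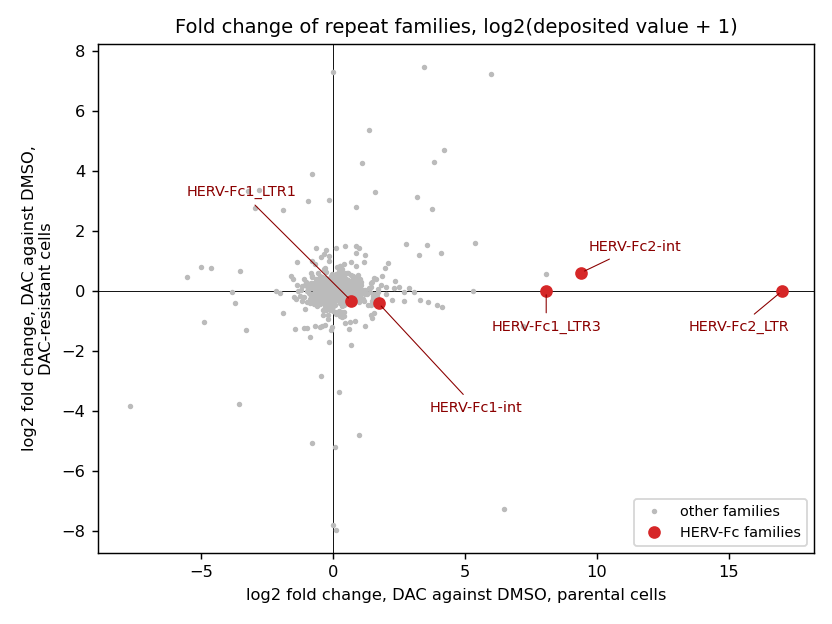
Log2 fold change with DAC in parental cells (horizontal) and in DAC-resistant cells (vertical) for the 1165 repeat families that passed the filter, with 5 HERV-Fc families in red. HERV-Fc2-int lies at 9.40 (6.95 with a pseudocount of 1000 deposited units) and 0.62, and HERV-Fc1-int at 1.73 and -0.41; the horizontal positions of HERV-Fc2_LTR and HERV-Fc1_LTR3, which had 0 reads in the control libraries, depend on the pseudocount and are no measure of their fold.

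The comparison of DAC-resistant with parental cells under DMSO asked whether the families were raised in the resistant line without drug. It shares the parental DMSO libraries with the contrast that chose the members. HERV-Fc2_LTR, HERV-Fc1_LTR2 and HERV-Fc1_LTR3 had 0 reads in both DMSO groups and could not be called. Of the other 3 families 0 were called by limma, beside 4.64% of all families tested. At an unadjusted p under 0.05, 0 of the 3 passed, beside 41.4% of all families, and voom called 0 of the 3 and 58 of all families. HERV-Fc1-int differed by 0.12 (standard error 0.10, limma adjusted p = 0.407), HERV-Fc1_LTR1 by 0.31 (standard error 0.41, limma adjusted p = 0.605) and HERV-Fc2-int by 0.16 (standard error 0.82, limma adjusted p = 0.913). For HERV-Fc2-int the log2 difference and the means differ in sign, since the mean was 0.260 FPKM in resistant and 0.282 FPKM in parental cells. The HERV-Fc1-int values of the resistant line lay above those of the parental line in both libraries, as 26.2% of all families did, and the other 2 overlapped. Scaling to gene reads in place of repeat reads turned HERV-Fc1-int to -0.052 and HERV-Fc2-int to -0.021. The resistant cells with DMSO held HERV-Fc2-int at 0.166% of its level in parental cells with DAC.

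A single annotated gene allowed one HERV-Fc copy to be followed by itself. ENSG00000233887, which GENCODE lists as a processed pseudogene of 1755 bases on the plus strand at chrX:97847263-97849017 (hg38), lies inside ERVFC1, a RefSeq gene model at chrX:97841746-97849381. ERVFC1 is named for member 1 of HERV-Fc1 and was not a row of the table by its symbol. The pseudogene was examined after its values were seen. It had 0 reads in either parental DMSO library and 3272 and 3144 reads in the parental DAC libraries. The resistant DMSO libraries had 0 and 1 reads, as did the resistant DAC libraries. Its level with DAC was 67.8 and 65.2 FPKM, and the mean was at least 1206-fold higher than the floor of 3 reads per library with DMSO. Its pattern across the 8 libraries was thus near to on and off, as for HERV-Fc2_LTR. In the parental DAC libraries its reads were 2.22 and 2.61 times all reads given to the HERV-Fc1-int family. The HERV-Fc2-int family had 6194 and 5666 reads in those libraries, more than the pseudogene. Genes and families were counted separately, and the family to which the repeat annotation assigns this stretch was not examined here.

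In the hg38 sequence the pseudogene is part of a provirus of 7943 bases. Aligning the region to itself placed a 5′ LTR at chrX:97841482-97841857 (376 bases, 18 CpG) and a 3′ LTR at chrX:97849055-97849424 (370 bases, 19 CpG), and these were identical at 92.8% of 377 aligned positions. The pseudogene ends 37 bases before the 3′ LTR. Elsewhere in the genome the provirus had 20 matches at the alignment threshold used, of at most 73.7% identity, and the longest of them was on chromosome 11 at chr11:5930745-5933258, with 69.4% identity over 2544 aligned bases.

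The promoter window of ERVFC1 from RefSeq (GRCh38.p14), base -250 to base 49 from the annotated start, lies within the 5′ LTR at chrX:97841496-97841795 on the plus strand. It is shown because the LTR of a provirus holds its promoter and because DAC acts on CpG methylation. Where transcripts of this locus start was not measured. The capitals mark TATAAA, the letters of a TATA box motif, and AATAAA, those of the common polyadenylation signal.

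ERVFC1 promoter: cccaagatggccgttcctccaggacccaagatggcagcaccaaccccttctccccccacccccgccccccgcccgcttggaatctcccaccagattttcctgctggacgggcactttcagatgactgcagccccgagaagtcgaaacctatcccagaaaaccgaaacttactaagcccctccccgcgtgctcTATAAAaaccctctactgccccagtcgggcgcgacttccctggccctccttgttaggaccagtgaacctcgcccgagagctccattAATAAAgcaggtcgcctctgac

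The window holds 16 CpG, beside a median of 14 over 35116 RefSeq promoters of the same length, of which 52.5% hold fewer, and its GC content is 59.7%. TATAAA was found once, from base -58 relative to the annotated start, and 11.5% of all promoters hold it on either strand. AATAAA was found once, from base 28 after the start, and 17.4% hold it on either strand. Both were searched on both strands, and they do not overlap each other. A match describes these letters only, and no methylation was measured in these files.

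Other class I internal families were followed as a list of 32, all of which passed the filter. With DAC in parental cells 4 were called higher and 0 lower by limma, beside 3.43% and 0.773% of all families, and the list's median log2 fold change was 0.15 beside -0.02 over all families. Those called were HERVP71A-int, HERVE_a-int, HERV9NC-int and HERV3-int, of which the last 2 are named after their values were seen. The second largest change of the list, 1.54 in HERV30-int, was not called (standard error 0.60, limma adjusted p = 0.132), at 0.0145 and 0.0109 FPKM with DMSO and 0.0465 and 0.0317 FPKM with DAC. HERVP71A-int went from 0.375 and 0.380 to 1.77 and 1.82 FPKM, a log2 fold change of 2.25 (standard error 0.12, limma adjusted p = 0.000306). The families named for features of both F and H groups stayed under the size threshold. HERVFH19-int was at 0.3003 and 0.303 FPKM with DMSO and 0.455 and 0.458 FPKM with DAC, and HERVFH21-int was at 2.096 and 2.07 FPKM with DMSO and 1.85 and 1.71 FPKM with DAC. HERVH-int, the internal region of one of the largest class I groups, was at 0.797 and 0.764 FPKM with DMSO and 1.32 and 1.27 FPKM with DAC.

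In the resistant cells DAC called 0 of these 32 families higher and 0 lower by limma, beside 0.258% of all families in each direction, with a median of -0.09 beside 0.01 over all families. Between the lines under DMSO, 1 was called higher in resistant cells, HERV9NC-int, at 5.22 and 4.99 FPKM beside 0.582 and 0.570 FPKM, and 5 were called lower, beside 2.49% and 2.15% of all families. The lower ones included HERVE-int, at 0.579 and 0.581 FPKM beside 3.90 and 4.01 FPKM, HERV1_I-int, at 0.244 and 0.304 FPKM beside 1.13 and 1.07 FPKM, and HERVFH21-int, at 0.897 and 0.664 FPKM beside 2.096 and 2.07 FPKM. The median of the list was -0.38 beside -0.07 over all families.

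Genes that carry endogenous retrovirus names were a list of 20, of which 8 were in the table and 4 passed the gene filter of 1 FPKM in 2 libraries. ERVH48-1, which encodes suppressyn and has HERV-Fb1 as an older name, was at 0.362 and 0.272 FPKM in parental cells with DMSO and 7.31 and 7.21 FPKM with DAC. In resistant cells it was at 0.170 and 0.119 FPKM with DMSO and 0.112 and 0.0468 FPKM with DAC. Only the parental DAC libraries were high, and the log2 fold change there was 2.65 on the log2(FPKM + 1) scale (standard error 0.09). ERVH48-1 passed the filter only through the parental DAC libraries, so no test of its difference is given. In the comparison of DAC with DMSO in parental cells, 9.31% of all genes tested were called. ERV3-1, an envelope gene of HERV-R, went from 13.9 and 13.2 FPKM to 26.7 and 28.7 FPKM with DAC in parental cells, a difference of 0.98 that lay close to the size threshold. It was 1.02 with a pseudocount of 0.1 FPKM, 1.01 without the first parental DMSO library and 1.03 without the first parental DAC library. It was lower in the resistant cells with DMSO, at 5.91 and 6.18 FPKM, a difference of -1.05 (standard error 0.05, limma adjusted p = 8.65e-06), beside 8.73% of genes called. Rescaled to TPM this difference was -0.98, under the size threshold. ERVMER34-1 was higher in the resistant cells with DMSO, at 1.24 and 1.36 FPKM beside 0.00784 and 0.0492 FPKM. The log2 difference was 1.16 (standard error 0.11). This gene passed the filter only through the resistant libraries, so no test of the difference is given. ERVK3-1 was not called in any of these comparisons. With DAC in resistant cells ERV3-1 and ERVMER34-1 were not called either, beside 0.235% of genes called. ERVH48-1, under 1 FPKM in every resistant library, could not reach the size threshold there on the log2(FPKM + 1) scale. The listed genes under the filter were not tested and are named after their values were seen. ERVW-1 was lower with DAC in parental cells, at 0.279 and 0.172 FPKM beside 0.453 and 0.425 FPKM. ERVFRD-1 and ERVV-1 were higher there with DAC, at no more than 0.149 FPKM, and the ERVV-2 groups overlapped.

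The families and genes whose log2 values over the 8 libraries were most like those of a HERV-Fc internal family were listed by Pearson's r, as a description. All points share the group structure, in which the parental DAC libraries stand apart, and 18 of 1160 families had r over 0.95 with HERV-Fc1-int and 19 with HERV-Fc2-int. For HERV-Fc1-int the nearest family was THE1C-int, the internal region of a MaLR element (r = 0.988), at 0.116 and 0.132 FPKM in parental cells with DMSO, 0.384 and 0.366 FPKM with DAC and 0.106 to 0.124 FPKM in resistant cells. For HERV-Fc2-int it was L1MEb, a LINE-1 family (r = 0.985), and then HERV3-int (r = 0.983), at 2.36 and 2.29 FPKM in parental cells with DMSO, 5.00 and 5.15 FPKM with DAC and 2.40 to 2.59 FPKM in resistant cells. Among 14899 genes, HSH2D, an adaptor protein of haematopoietic cells, was nearest to HERV-Fc1-int (r = 0.994), and KIAA1614 to HERV-Fc2-int (r = 0.994). The genes with r over 0.95 numbered 768 and 675. HSH2D was at 24.4 and 24.3 FPKM in parental cells with DMSO, 37.5 and 35.7 FPKM with DAC and 22.1 to 24.7 FPKM in resistant cells.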

How the data were processed

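RNA was measured by RNA-seq in 8 libraries. The authors trimmed reads with Cutadapt 1.9.1, aligned them to hg38 with HISAT2 2.1.0 and counted them with HTSeq 0.13.5 on Ensembl genes and on RepeatMasker families. Strand use and the handling of reads with several matches are not given in the sources used here. The authors deposited FPKM values multiplied by 1000, with genes and families scaled by separate totals. Whole reads were recovered for all 1172 families above 0, as the smallest whole counts that fit their values. They gave the depths and the voom alternative. FPKM is not a count, so limma 3.58.1 (R 4.3.3) was run on log2 values, with 4 group means and trended variances. Families had a pseudocount of 1 deposited unit (0.001 FPKM) and a filter of 1 deposited unit in 2 libraries. Genes had a pseudocount of 1 FPKM. Fold changes are on the log2(value + pseudocount) scale. For low genes this understates a change, and for families, whose pseudocount is far below the value of 1 read, it gives large values against groups at 0 reads, which are not used as folds. P-values were adjusted by Benjamini-Hochberg across every family or gene fitted. The members and lists were chosen with earlier results of these data known. Named were all HERV-Fc families, the 2 F/H families, HERVH-int and up to 3 other related families of largest change in a comparison, the listed endogenous retrovirus genes that passed the filter, and the features of highest correlation. A gene or family outside this rule is marked in the text. For the endogenous retrovirus genes the design had allowed at most 3, and all 4 that passed are named. Replicates differed by more than sampling noise (chi-square per family 3.45 to 3.67). The provirus was found with blastn. The fits were tested on simulated data, but no result of that test is given here. Alternatives were other pseudocounts, filters, scalings, thresholds and fits, voom, a replicate block, and each library left out.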

Additional observations from a re-analysis of the deposited data

Results flagged for a closer look

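HERV-Fc1-int had DAC differences of opposite sign in the 2 lines. Both parental DAC libraries lay above both parental DMSO libraries, and both resistant DAC libraries lay below both resistant DMSO libraries. The resistant difference, -0.41 on the log2 scale, was under the size threshold (limma adjusted p = 0.345), and 19.5% of all families were likewise lower in both resistant DAC libraries. The effect in resistant cells minus that in parental cells was -2.13 on the log2 scale. This difference was not tested, because the family was chosen for its rise in the parental cells.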

How the results depend on the processing

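Of the 3 HERV-Fc families with reads in the 2 tested comparisons, 0 were called under any of 23 alternatives, and the other 3 had 0 reads and could not be. Counts over all families moved by more than 1.5 times in places. With DAC in parental cells, 49 families fell to 13 with a pseudocount of 1000 deposited units, alone or with a matching filter added after seeing the data. With DAC in resistant cells, 6 calls became 0 under both of these and under adjusted p-values, 2 with at least 10 reads or with voom, 11 with only the 4 libraries compared, and 6 to 15 when one library was left out. Between the lines 54 became 7 under both pseudocount settings. A pseudocount of 0.1 FPKM raised the genes called from 1387 to 2097, from 35 to 107 and from 1300 to 2263, and leaving out one library gave 37 to 53 for the second. The cause was not tested. HERV-Fc1-int with DAC in resistant cells kept its direction in all 22 alternatives, at -0.46 to -0.34. With one library left out, HERV-Fc2-int with DAC in parental cells was 8.45 to 10.4, and resistant against parental cells with DAC it was -9.53 to -7.73. With a pseudocount of 1000 these were 6.95 and -6.76, and with quantile scaling 8.33 and -7.50, beside 9.40 and -8.63. Directions turned as follows. With one library left out, HERV-Fc1_LTR1 ranged from -0.72 to 0.10 (0.01 in another case) with DAC in resistant cells and from -0.10 to 0.73 (-0.04 in another case) between the lines. HERV-Fc1-int between the lines became -0.052 with gene reads and -0.27 with quantile scaling. HERV-Fc2-int ranged from -0.28 (without the first resistant DAC library) to 1.52 with DAC in resistant cells, and between the lines it became -0.014 with a pseudocount of 1000, alone or with the filter, -0.021 with gene reads, and -0.80 to 1.11 with one library left out (-0.80 without the second parental DMSO library, -0.10 without the first resistant DMSO library). In resistant cells with DAC, ENSG00000233887 ranged from -0.0138 to 0.0133 (0.0130 in another case), and ENSG00000226887 (ERVMER34-1) from -0.0541 to 0.0641 (-0.0351 in another case), with one library left out. Between the lines the median of all families was -0.25 with gene reads and -0.18 as TPM, and TPM put it at -0.42 for DAC in parental cells, beside -0.07 and -0.02. Replicate numbers did not pair the samples (correlations -0.06 to 0.196), and a replicate block gave 48, 6 and 56 families. Depth limits the LTR families, since 3 reads of HERV-Fc2_LTR equal 0.831 to 0.995 FPKM.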
